A study of Homo sapiens with 12 samples.

Results

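The transcripts described here come from 10 genes of the stress response led by ATF4 and of the serine and one-carbon pathway. They were chosen by name, with earlier results of these data known. All 10 were found among the 56638 gene symbols of the count table and among the 16080 genes that passed the filter on low counts. RNA was sequenced from 501Mel, an established human melanoma cell line with mutant BRAF, after 48 h with vehicle (DMSO), 1 μM Vem, 10 nM TCDD, 5 μM RSV, RSV+Vem or RSV+TCDD, with 2 libraries per group. Vem (vemurafenib) is an inhibitor of mutant BRAF, TCDD is a dioxin that activates the aryl hydrocarbon receptor AhR, and RSV (resveratrol) is a plant stilbene used in the study as an antagonist of AhR. For RSV+TCDD, the treatment protocol and the study's methods give 10 nM TCDD, while the label of these libraries gives 1 nM. All groups are cultures of this single line, and nothing in the labels says that the 2 libraries of a group came from separate cultures, so the p-values measure only the spread between these libraries, which may be technical.

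ATF4 is a transcription factor that cells translate more when the initiation factor eIF2α is phosphorylated, which happens under amino acid shortage, unfolded proteins in the endoplasmic reticulum, heme shortage or mitochondrial stress. Its targets include the transcription factor DDIT3 (CHOP), CHAC1, which degrades glutathione, the pseudokinase TRIB3, and ASNS, which makes asparagine. ATF4 also drives the serine pathway, in which PHGDH, PSAT1 and PSPH convert a glycolytic intermediate to serine in consecutive steps, and the mitochondrial enzymes SHMT2 and MTHFD2 pass a carbon of serine to folate. Because ATF4 is controlled largely at translation, its mRNA level is not a measure of its protein.

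Libraries held between 8378655 and 25076925 counts on genes, and a member between 26 and 16234 in any library. The lowest total was that of RSV+Vem replicate 2. RIN, a score of RNA integrity, was between 8.6 and 9.7, with its lowest values, 8.7 and 8.6, in the RSV+Vem libraries; its part in the results was not tested. The labels fitted 3 known responses: CYP1A1, a target of AhR, was at 23.5 and 23.1 CPM with vehicle and 156 and 131 with TCDD, and DUSP6 and ETV4, which depend on BRAF signalling, were lower with Vem, with log2 fold changes of -6.35 and -6.79. The 6 melanocyte markers summed to between 9356 and 34823 CPM. They were highest with Vem and lowest with RSV. The keratinocyte markers summed to at most 0.112 CPM, and the leukocyte and endothelial markers to at most 1.31 and 1.92 CPM. The fibroblast markers summed to between 6.53 and 38.7 CPM, with the highest sums in the TCDD libraries, and their part in the results was not tested.

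With RSV against vehicle, the 3 members with the largest log2 fold changes were CHAC1, DDIT3 and ASNS, and their promoters are shown. Over Vem, MTHFD2 (1.69) was above CHAC1 (1.58) and ASNS (1.45). TRIB3, PSPH and MTHFD2 were called higher in all 3 comparisons with RSV below, as these 3 genes were. RefSeq promoter windows of 300 bases, from 250 bases before the transcription start to 50 after it, were found for 8 of the 10 members, with 13 windows in all. Each window occurred once on the GRCh37 chromosome of its gene, searched in the direction of the gene only. The windows were searched on both strands for the letters TGATGNAA, one form of the C/EBP-ATF response element (CARE) that ATF4 binds with a partner, and for TNGCGTG, the core of the AhR element (XRE). The first occurred in the windows of CHAC1, at base -209 from the start on the minus strand, and of ASNS, at base -68 on the plus strand. Of 34796 RefSeq windows of this length, 3.63% held it. The second occurred in 1 of the 2 ASNS windows, at base -135 from the start used there, and in 5.49% of all windows. Neither occurred in the windows of the other members, TRIB3 and MTHFD2 among them. A match describes the letters only, and no match says only that they are not in this window. The 250 bases before the start are given below as GRCh37 has them, 5′ to 3′ in the direction of the gene, with the CARE letters in capitals: CHAC1 at chr15:41245419-41245668 on the plus strand, ASNS at chr7:97501721-97501970 on the minus strand, and DDIT3, with no match, at chr12:57914298-57914547 on the minus strand.
CHAC1: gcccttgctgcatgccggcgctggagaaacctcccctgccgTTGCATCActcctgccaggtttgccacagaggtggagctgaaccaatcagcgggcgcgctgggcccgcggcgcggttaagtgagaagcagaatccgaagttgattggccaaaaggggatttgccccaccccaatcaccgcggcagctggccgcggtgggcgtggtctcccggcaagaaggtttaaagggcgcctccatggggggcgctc
ASNS: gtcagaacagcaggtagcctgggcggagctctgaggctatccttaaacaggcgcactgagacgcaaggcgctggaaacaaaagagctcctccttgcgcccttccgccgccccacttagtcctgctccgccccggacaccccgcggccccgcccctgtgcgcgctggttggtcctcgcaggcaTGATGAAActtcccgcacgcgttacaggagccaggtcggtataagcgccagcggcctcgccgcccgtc
DDIT3: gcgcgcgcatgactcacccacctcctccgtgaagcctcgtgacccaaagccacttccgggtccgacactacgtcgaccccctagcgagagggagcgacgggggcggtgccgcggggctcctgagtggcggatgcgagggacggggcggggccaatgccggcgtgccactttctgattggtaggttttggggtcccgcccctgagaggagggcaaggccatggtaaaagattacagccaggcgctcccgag

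Levels are given in replicates 1 and 2 as TMM-scaled CPM (counts on a gene relative to the scaled total of its library), and differences as log2 fold changes with their standard error from edgeR's quasi-likelihood fit to all 12 libraries. Adjusted p-values are from its F test, two-sided, with Benjamini-Hochberg adjustment over the 16080 genes tested, and a change was called where the adjusted p was below 0.05. RSV was compared with vehicle, RSV+Vem with Vem, and RSV+TCDD with TCDD. These comparisons share no library, so each gives the effect of RSV in its own background.

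**Figure D1:**
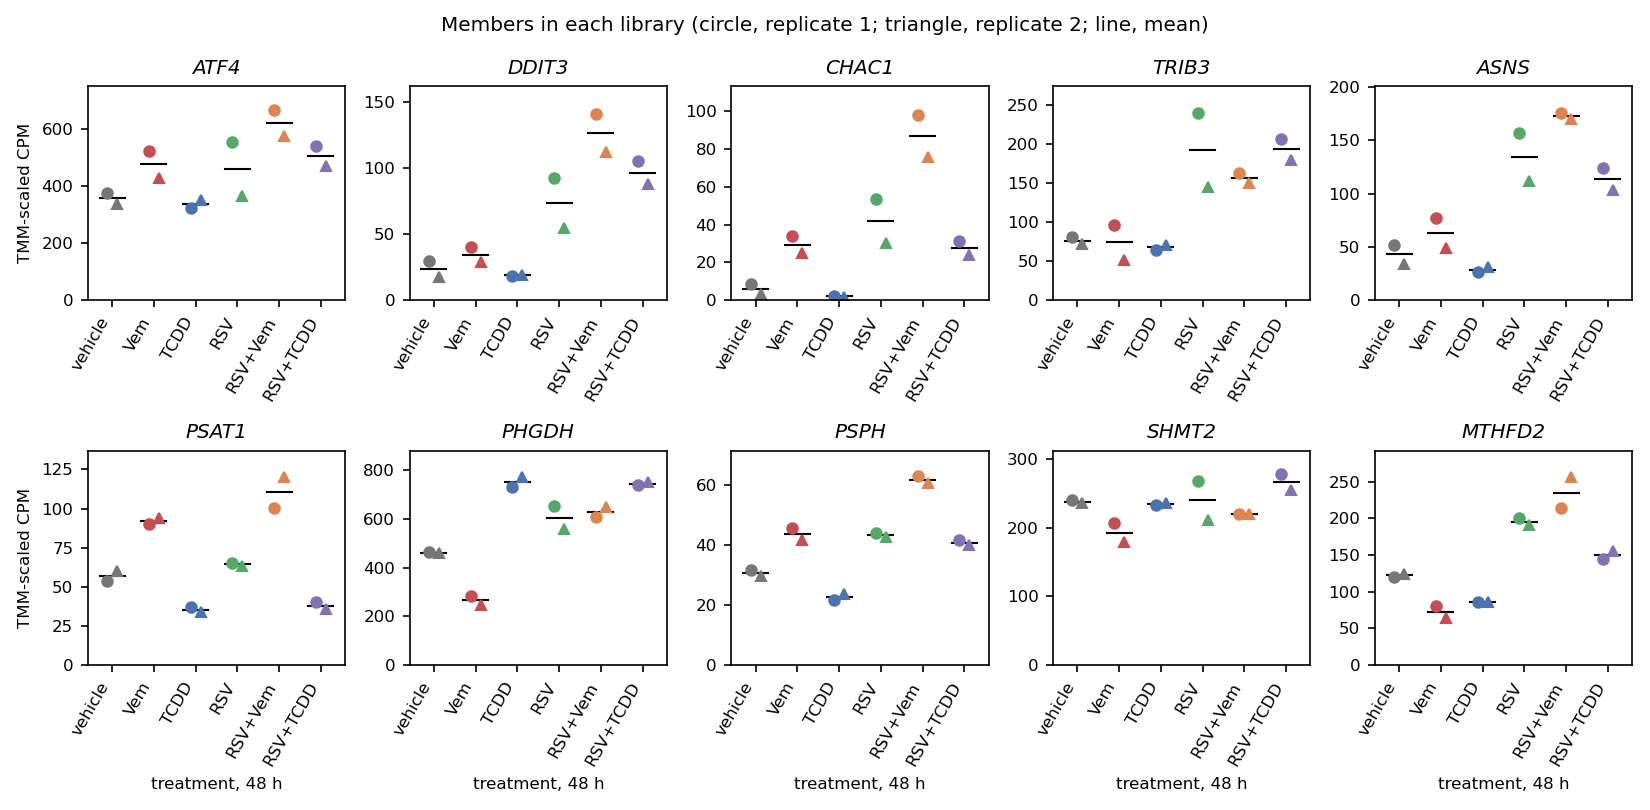
TMM-scaled CPM (vertical axes, linear from 0) of the 10 members in each of the 12 libraries, by treatment. Circles are replicate 1, triangles replicate 2 and lines the group mean. DDIT3, CHAC1 and ASNS were higher in every RSV library than in the matching libraries without RSV, and PSAT1 was highest in the libraries with Vem and lowest in those with TCDD.

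RSV raised the same 4 stress genes in all 3 backgrounds. CHAC1 (ENSG00000128965, chr15:41245160-41248710, plus strand), the glutathione-degrading enzyme, rose 7.11-fold with RSV alone, the largest change of the members in that comparison. It was at 8.76 and 3.28 CPM with vehicle and 53.5 and 30.2 with RSV, at 33.7 and 24.7 with Vem and 98.2 and 75.6 with RSV+Vem, and at 2.12 and 1.91 with TCDD and 31.1 and 23.8 with RSV+TCDD. Each pair of groups stood apart, and the 2 RSV+Vem libraries were the highest of the 12. The log2 fold change was 2.83 ± 0.47 (adjusted p = 0.00286) with RSV alone, 1.58 ± 0.42 (adjusted p = 0.0231) over Vem, and 3.75 ± 0.57 (adjusted p = 0.00201) over TCDD. Over Vem the call was lost without either Vem or either RSV+Vem library (adjusted p = 0.0550 to 0.124) and without the filter on low counts (0.0615). The call against vehicle was lost in a fit to only the libraries compared, with an adjusted p of 0.108.

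DDIT3 (ENSG00000175197, chr12:57910371-57915520, minus strand), the pro-apoptotic transcription factor CHOP, rose 3.13-fold with RSV alone, 3.67-fold over Vem and 5.15-fold over TCDD. It was at 29.8 and 17.7 CPM with vehicle and 92.8 and 55.1 with RSV, at 40.1 and 29.0 with Vem and 141 and 112 with RSV+Vem, and at 18.6 and 19.0 with TCDD and 106 and 88.0 with RSV+TCDD. All 6 RSV libraries were above all 6 without RSV. The log2 fold changes were 1.65 ± 0.32 (adjusted p = 0.00477), 1.88 ± 0.32 (adjusted p = 0.00254) and 2.36 ± 0.33 (adjusted p = 0.00101). In a fit to only the vehicle and RSV libraries the adjusted p was 0.0763. Exons of DDIT3 overlap those of MARS on the other strand by 355 bases and those of an unnamed gene model on the same strand by 105 bases. Counts did not follow the antisense strand: of 27 antisense genes inside exons of well counted genes, 24 had a read density under 0.05 of their host's. This check cannot tell counting by strand from counting without strand, where reads shared by 2 genes can be left out.

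ASNS (ENSG00000070669, chr7:97480989-97501854, minus strand), asparagine synthetase, rose 3.11-fold with RSV alone, 2.73-fold over Vem and 3.97-fold over TCDD. Its levels were 52.2 and 34.3 CPM with vehicle, 77.5 and 48.6 with Vem, 26.4 and 31.1 with TCDD, 156 and 112 with RSV, 175 and 170.1 with RSV+Vem and 124 and 103 with RSV+TCDD, so that every RSV library was above every library without RSV. The log2 fold changes were 1.64 ± 0.27 (adjusted p = 0.00166), 1.45 ± 0.27 (adjusted p = 0.00321) and 1.99 ± 0.28 (adjusted p = 0.000776), and no library left out ended a call. The near copy ASNSP1 held 2.35% as many counts as ASNS, and an unnamed gene model on the same strand covers 2415 exonic bases of ASNS.

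TRIB3 (ENSG00000101255, chr20:343479-378203, plus strand), a pseudokinase that restrains AKT and ATF4, rose 2.53-fold with RSV alone, 2.12-fold over Vem and 2.87-fold over TCDD. It was at 80.5 and 71.8 CPM with vehicle, 96.2 and 52.0 with Vem, 64.2 and 71.1 with TCDD, 240.4 and 145 with RSV, 163 and 151 with RSV+Vem and 207 and 179.8 with RSV+TCDD. All RSV libraries stood above those without RSV, but the replicates of RSV and of Vem lay far apart. The log2 fold changes were 1.34 ± 0.31 (adjusted p = 0.0121), 1.08 ± 0.32 (adjusted p = 0.0321) and 1.52 ± 0.32 (adjusted p = 0.00793). These calls were the least firm of the 4: against vehicle the call was lost without vehicle replicate 2 (adjusted p = 0.0605) or RSV replicate 1 (0.0644), and over TCDD without TCDD replicate 1 (0.0724) or RSV+TCDD replicate 1 (0.0539). Over Vem the call was lost without either library of TCDD, RSV+Vem or RSV+TCDD (adjusted p = 0.0583 to 0.138), and without Vem replicate 2 the log2 fold change was 0.71 (adjusted p = 0.0564). It was also lost without the filter on low counts (adjusted p = 0.0922) and in a fit to only the libraries compared (0.154).

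The mRNA of ATF4 itself (ENSG00000128272, chr22:39915700-39918688, plus strand) had a smaller log2 fold change than these 4 genes in each comparison. It was at 373 and 338 CPM with vehicle and 553 and 365 with RSV, at 522 and 429 with Vem and 664 and 574 with RSV+Vem, and at 321 and 350.0 with TCDD and 538 and 469 with RSV+TCDD. The vehicle and RSV groups overlapped, and the other 2 pairs of groups did not. ATF4 was called over TCDD, with a log2 fold change of 0.59 ± 0.17 (adjusted p = 0.0188), which turned to -0.07 when counts were scaled to the spike-ins. The values were 0.37 ± 0.17 (adjusted p = 0.108) with RSV alone and 0.38 ± 0.17 (adjusted p = 0.102) over Vem, with 95% confidence intervals of -0.01 to 0.74 and 0.01 to 0.75. The effect of RSV with TCDD was not shown to differ from that without, with a difference of 0.22 ± 0.24 (adjusted p = 0.899). The call over TCDD was lost without TCDD replicate 1, TCDD replicate 2 or RSV+TCDD replicate 1 (adjusted p = 0.0560 to 0.127). A call appeared against vehicle without RSV replicate 2 (log2 fold change 0.63, adjusted p = 0.000688), with DESeq2 (adjusted p = 0.0439) and without the filter on low counts (0.00195). Over Vem a call appeared without RSV replicate 1 or 2 (adjusted p = 0.00733 and 0.00747), without the filter (0.000726) and in a fit to only the libraries compared (0.00304). The near copy ATF4P3 held 0.717% as many counts as ATF4.

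The enzymes of serine synthesis did not all rise with RSV. PSPH (ENSG00000146733, chr7:56078744-56119297, minus strand), the phosphatase of the last step to serine, rose in all 3 backgrounds by a modest amount. It was at 31.6 and 29.7 CPM with vehicle and 44.1 and 42.6 with RSV, at 45.7 and 41.7 with Vem and 62.9 and 60.8 with RSV+Vem, and at 21.7 and 23.8 with TCDD and 41.6 and 40.0 with RSV+TCDD. The replicates lay close together and no pair of groups overlapped. The log2 fold changes were 0.50 ± 0.11 (adjusted p = 0.00113), 0.50 ± 0.11 (adjusted p = 0.00110) and 0.84 ± 0.11 (adjusted p = 1.40e-05). With the counts scaled to the spike-ins the values were 0.33, 0.47 and 0.17, and none was called (adjusted p = 0.830, 0.794 and 0.775).

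PHGDH (ENSG00000092621, chr1:120191034-120286841, plus strand), the first and committed step, rose with RSV alone and most over Vem, where it had been lowest. It was at 462 and 459 CPM with vehicle and 652 and 559 with RSV, at 283 and 247 with Vem and 609 and 647 with RSV+Vem, and at 733 and 773 with TCDD and 738 and 750.2 with RSV+TCDD. The TCDD and RSV+TCDD groups overlapped. The log2 fold change was 0.40 ± 0.09 with RSV alone (adjusted p = 0.00211), 1.24 ± 0.09 over Vem (adjusted p = 2.49e-08) and -0.02 ± 0.09 over TCDD (adjusted p = 0.907, 95% confidence interval -0.21 to 0.17). Spike-in scaling ended both calls, with 0.24 against vehicle and 1.19 over Vem (adjusted p = 0.884 and 0.130). PSAT1 (ENSG00000135069, chr9:80912041-80945009, plus strand), the aminotransferase of the middle step, was called in none of the 3. Its log2 fold changes were 0.18, 0.25 and 0.10 (adjusted p = 0.211, 0.0768 and 0.530), with 95% confidence intervals of -0.05 to 0.41, 0.02 to 0.49 and -0.14 to 0.34. Over Vem it was called without RSV+Vem replicate 1 (log2 fold change 0.38, adjusted p = 0.0370) and in a fit to only the libraries compared (adjusted p = 0.0314).

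The mitochondrial pair of the folate cycle split. MTHFD2 (ENSG00000065911, chr2:74413299-74444692, plus strand), the dehydrogenase and cyclohydrolase that oxidises the folate-bound carbon, rose 1.60-fold with RSV alone, 3.23-fold over Vem and 1.74-fold over TCDD. It was at 120.0 and 125 CPM with vehicle and 201 and 190.2 with RSV, at 80.8 and 64.4 with Vem and 214 and 256 with RSV+Vem, and at 85.9 and 86.3 with TCDD and 144 and 155 with RSV+TCDD. No pair of groups overlapped, and the log2 fold changes were 0.68 ± 0.11 (adjusted p = 9.52e-05), 1.69 ± 0.11 (adjusted p = 6.87e-09) and 0.80 ± 0.11 (adjusted p = 2.64e-05). With spike-in scaling the call held over Vem, but not against vehicle (0.51, adjusted p = 0.675) or over TCDD (0.10, 0.860). The near copy MTHFD2P1 held 5.88% as many counts as MTHFD2, so a small share of reads may have been split between them. Exons of MTHFD2 overlap those of SLC4A5 on the other strand by 1324 bases and those of an unnamed gene model there by 295 bases. SHMT2 (ENSG00000182199, chr12:57623356-57628718, plus strand), which takes the carbon from serine, stayed between 179 and 278 CPM over the 12 libraries. It was called in none of the 3 comparisons, with log2 fold changes of 0.01, 0.19 and 0.18 (adjusted p = 0.941, 0.163 and 0.174) and 95% confidence intervals of -0.21 to 0.23, -0.03 to 0.41 and -0.03 to 0.40. Over TCDD it was called in a fit to only the libraries compared (adjusted p = 0.0487). Exons of SHMT2 overlap those of an unnamed gene model on the other strand by 352 bases and those of NDUFA4L2 by 33 bases. The limit of the strand check given for DDIT3 holds for MTHFD2 and SHMT2 as well.

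**Figure D2:**
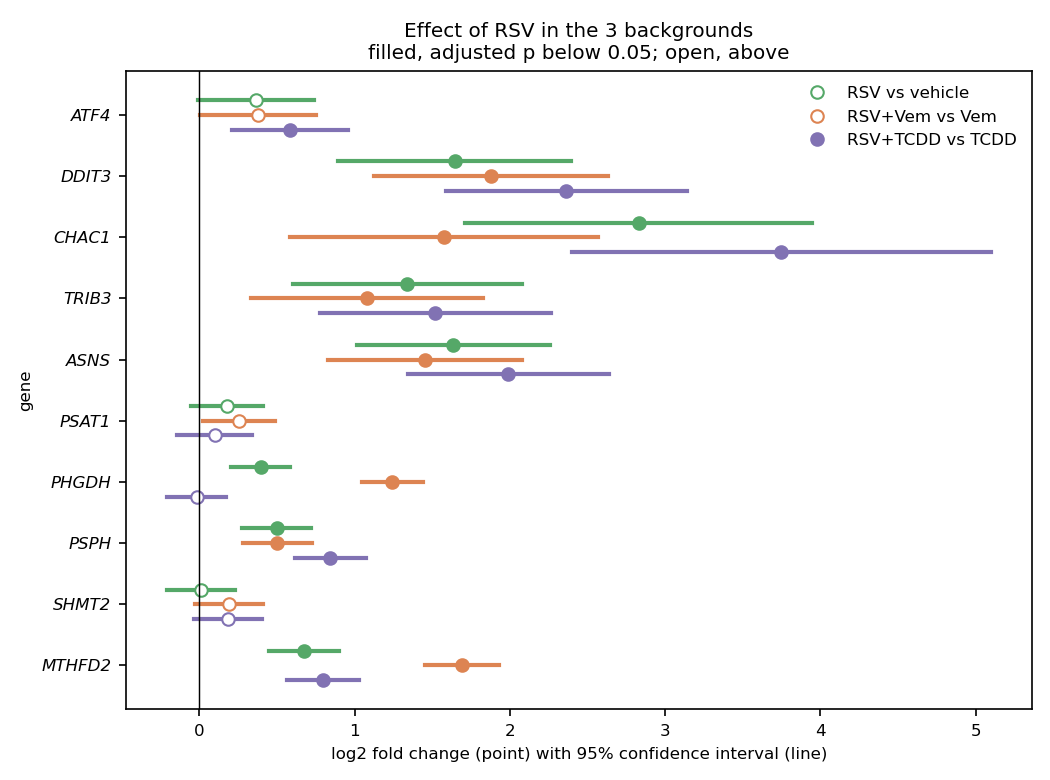
Log2 fold changes (horizontal axis) of the 10 members with RSV against vehicle, over Vem and over TCDD, with 95% confidence intervals as lines. Filled points passed an adjusted p of 0.05 and open points did not. CHAC1, DDIT3, TRIB3, ASNS, PSPH and MTHFD2 were called higher in all 3.

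Of the 10 members, 7 were called higher and 0 lower in each of the 3 comparisons, against 20.5%, 19.1% and 18.6% of the tested genes called higher with RSV alone, over Vem and over TCDD, with 20.2%, 18.7% and 19.1% called lower and 40.7%, 37.9% and 37.7% in either direction. The median log2 fold change of the members was 0.59, 1.16 and 0.82, beside -0.0018, 0.026 and -0.0058 over all tested genes. CHAC1, DDIT3, TRIB3, ASNS, PSPH and MTHFD2 were called higher in all 3 comparisons, 6 of 10 members, as were 6.82% of all tested genes. The members were chosen with earlier results of these data known, so these shares describe them and are not an independent test. Replicates were unequal for these genes. All 10 members were higher in RSV replicate 1 than in RSV replicate 2, by a median log2 difference of 0.41, where the median over all genes was -0.01 with an SD of 0.38. Replicate 1 was also the higher for 9 of 10 members with Vem (median 0.30), 8 with vehicle (0.12), 8 with RSV+TCDD (0.18) and 7 with RSV+Vem (0.04), and for 2 with TCDD (-0.05). Without RSV replicate 1, CHAC1 had a log2 fold change against vehicle of 2.36 (adjusted p = 0.0176), DDIT3 of 1.22 (0.0225) and ASNS of 1.38 (0.0184), while ATF4 was at 0.03 (0.870). ERCC spike-ins are control RNAs, and the controls held between 0.0310% and 0.0936% of the counts. Their share was 0.0389% and 0.0903% with RSV+Vem and 0.0630% and 0.0936% with RSV+TCDD, and lay closer within the other groups. Such differences between replicates add to the spread under spike-in scaling. With this scaling the median of all genes shifted by -0.17, -0.04 and -0.69 in the 3 comparisons, and 3, 4 and 3 members were called higher. These were CHAC1, DDIT3 and ASNS in each comparison and MTHFD2 over Vem, and TRIB3 was not called in any.

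The effect of RSV over Vem was then compared with its effect without Vem, as an interaction. The effect was larger with Vem for 2 members, PHGDH and MTHFD2. For PHGDH the log2 fold change of RSV was 1.24 with Vem and 0.40 without, a difference of 0.85 ± 0.13 (adjusted p = 0.000152). For MTHFD2 it was 1.69 and 0.68, a difference of 1.02 ± 0.15 (adjusted p = 0.000152). Both genes were below vehicle with Vem. With RSV+Vem, MTHFD2 was above its RSV level in both libraries, and PHGDH overlapped its RSV level. Of all tested genes, 11.8% were called with a positive and 10.9% with a negative difference, 22.7% in all. Both calls held with each library left out, and neither was made with spike-in scaling, where the differences were 0.95 and 1.09 (adjusted p = 1.000 and 1.000).

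For CHAC1 the difference ran the other way, -1.25 ± 0.63, and was not called (adjusted p = 0.205, 95% confidence interval -2.74 to 0.23). It was called without vehicle replicate 1 (-2.09, adjusted p = 0.0220) and in the fit without robust estimation of the spread (adjusted p = 0.0482). The other 7 members had differences between -0.26 and 0.23. In the interaction of RSV with TCDD no member was called, with differences from -0.41 for PHGDH (95% confidence interval -0.68 to -0.14) to 0.92 for CHAC1 (-0.91 to 2.75), and 2 members, PHGDH and PSPH, had an unadjusted p under 0.05. DESeq2 called no member there either, and edgeR called 0.149% of all tested genes, 0.0124% with a positive and 0.137% with a negative difference.

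**Figure D3:**
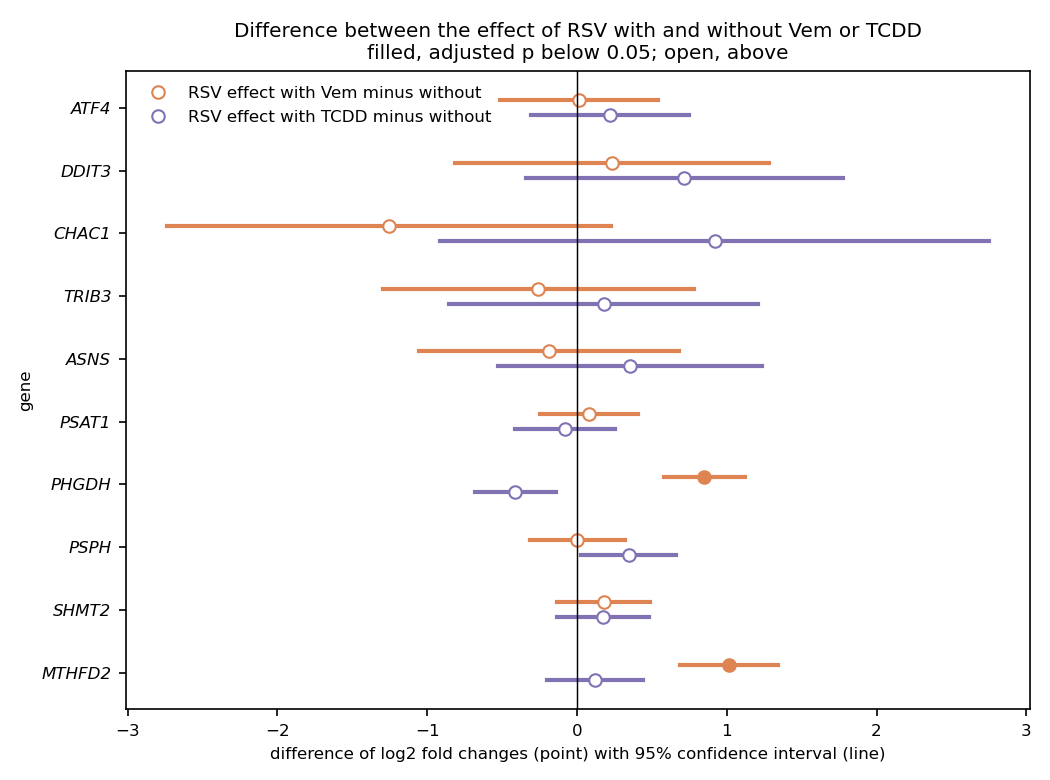
Difference between the log2 fold change of RSV with Vem or TCDD and without it (horizontal axis) for the 10 members, with 95% confidence intervals as lines. Filled points passed an adjusted p of 0.05: PHGDH at 0.85 and MTHFD2 at 1.02 for Vem, and none for TCDD.

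Vem alone moved members in both directions. CHAC1 rose 4.99-fold, and PSAT1 and PSPH, the middle and last steps to serine, rose 1.62-fold and 1.43-fold. PHGDH, MTHFD2 and SHMT2 fell, to 0.576, 0.594 and 0.810 of their vehicle level. PSAT1 was at 53.4 and 60.2 CPM with vehicle and 90.2 and 94.1 with Vem, and SHMT2 at 240.0 and 236 and 207 and 179. None of these 6 genes had overlapping groups. The log2 fold changes were 2.32 ± 0.48 for CHAC1 (adjusted p = 0.00529), 0.70 ± 0.11 for PSAT1 (3.66e-05) and 0.51 ± 0.11 for PSPH (0.000568). They were -0.80 ± 0.09 for PHGDH (adjusted p = 9.44e-07), -0.75 ± 0.11 for MTHFD2 (1.63e-05) and -0.30 ± 0.10 for SHMT2 (0.0202). With spike-in scaling, which shifted the median of all genes by -0.65, PSAT1 was at 0.05 (adjusted p = 0.950) and PSPH at -0.14 (0.837), and SHMT2 was not called (0.0798).

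The other members were not called with Vem in the fit reported. ATF4 had a log2 fold change of 0.42 ± 0.17 (adjusted p = 0.0580), DDIT3 of 0.55 ± 0.33 (0.201), ASNS of 0.55 ± 0.27 (0.127) and TRIB3 of -0.04 ± 0.32 (0.935). In all, 3 members were called higher and 3 lower, beside 25.5% and 26.9% of the tested genes, or 52.4% in either direction, so the share of members called was near that of all genes. SHMT2 lost its call without vehicle replicate 1, vehicle replicate 2 or Vem replicate 2 (adjusted p = 0.0641 to 0.215), and CHAC1 in a fit to only the libraries compared (0.0585). Calls higher with Vem appeared for ATF4 without Vem replicate 2, RSV replicate 1 or RSV replicate 2 (adjusted p = 0.00238 to 0.0439), for ASNS without vehicle replicate 1 or Vem replicate 2 (0.0323 and 0.0180), and for DDIT3 without vehicle replicate 1 (0.0381). For DDIT3 and ASNS the log2 fold changes without vehicle replicate 1 were 0.97 and 0.87. ATF4 was also called without the filter on low counts (adjusted p = 0.000306), with DESeq2 (0.0120), in a fit to only the libraries compared (0.00439) and without robust estimation of the spread (0.0281), and ASNS in the last of these (0.0374).

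With TCDD alone 4 genes of the serine and one-carbon pathway were called and none of the stress genes was. PHGDH rose 1.64-fold, from 462 and 459 CPM with vehicle to 733 and 773 with TCDD. PSAT1, PSPH and MTHFD2 fell, with TCDD levels of 36.9 and 33.8, 21.7 and 23.8 and 85.9 and 86.3 CPM. The groups of these 4 genes did not overlap. The log2 fold changes were 0.71 ± 0.09 for PHGDH (adjusted p = 0.000118), -0.68 ± 0.11 for PSAT1 (0.00110), -0.51 ± 0.11 for MTHFD2 (0.00849) and -0.43 ± 0.11 for PSPH (0.0224). The comparisons of Vem and of TCDD share the vehicle libraries, and their difference was not tested. CHAC1 had the largest value, -1.52 ± 0.64, at 2.12 and 1.91 CPM with TCDD and 8.76 and 3.28 with vehicle, but was not called (adjusted p = 0.232); it was called by DESeq2 (adjusted p = 0.0404), with spike-in scaling (0.0415) and without vehicle replicate 2 (log2 fold change -2.11, adjusted p = 0.0397). ASNS was at -0.59 (adjusted p = 0.272), DDIT3 at -0.33 (0.635), TRIB3 at -0.17 (0.810), ATF4 at -0.08 (0.828) and SHMT2 at -0.02 (0.942). The 4 calls among 10 members, 1 higher and 3 lower, stand beside 6.73% of all tested genes called, 4.72% higher and 2.01% lower. PSPH lost its call without vehicle replicate 1, TCDD replicate 1 or TCDD replicate 2 (adjusted p = 0.0884 to 0.264), and MTHFD2 without TCDD replicate 1 or 2 (0.0906 and 0.0757). With spike-in scaling the median of all genes shifted by -0.51 and none of the 4 was called, with PHGDH at 0.20 (adjusted p = 0.754) and PSAT1, PSPH and MTHFD2 at -1.19, -0.94 and -1.02 (0.518 each).

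**Figure D4:**
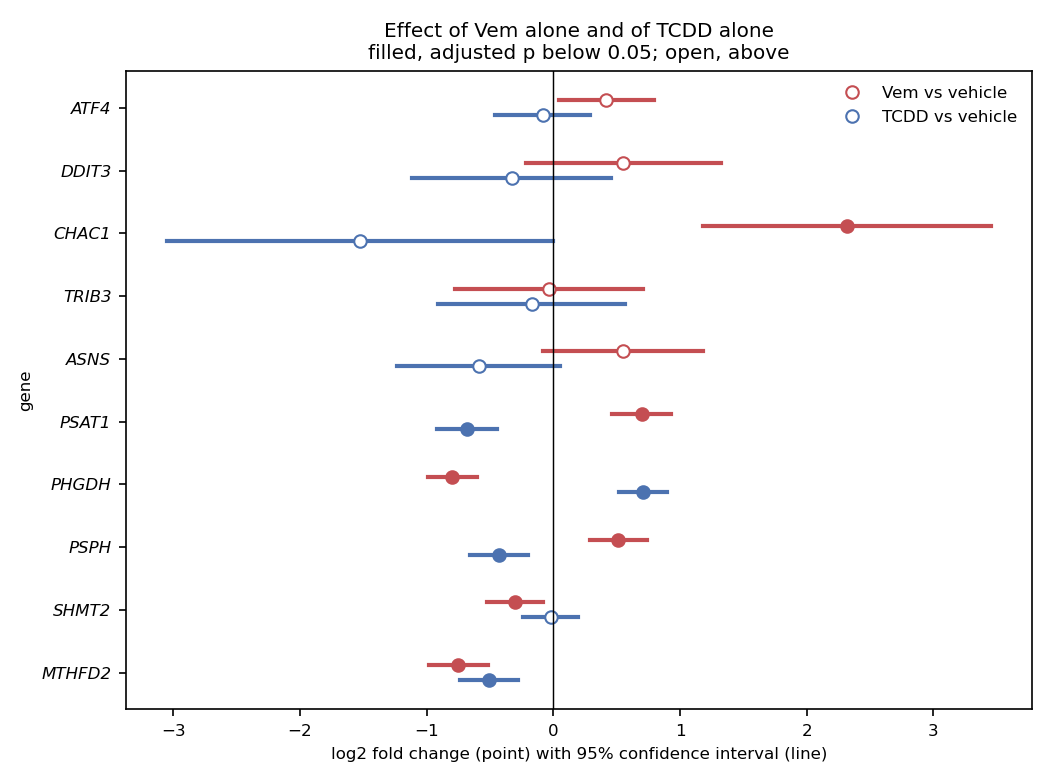
Log2 fold changes (horizontal axis) of the 10 members with Vem and with TCDD, each against vehicle, with 95% confidence intervals as lines. Filled points passed an adjusted p of 0.05. PHGDH was lower with Vem and higher with TCDD, PSAT1 and PSPH the reverse, and MTHFD2 was lower with both.

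With both RSV and Vem, 9 members were called above vehicle and 0 below, beside 24.1% of the tested genes called higher and 24.7% lower (48.8% in all). The largest changes were those of CHAC1, 14.9-fold with a log2 fold change of 3.89 ± 0.48 (adjusted p = 0.000439), DDIT3 with 2.43 ± 0.33 (0.000479) and ASNS with 2.00 ± 0.28 (0.000393). ATF4 mRNA was called in this comparison, 0.80 ± 0.17 (0.00242), and so were PSAT1 with 0.95, PSPH with 1.02, MTHFD2 with 0.94 and PHGDH with 0.45. SHMT2 was below vehicle in both libraries, at -0.11 ± 0.10 (0.386). TRIB3 was at 1.05 ± 0.31 (adjusted p = 0.0278), a call lost without either library of vehicle, TCDD, RSV+Vem or RSV+TCDD (adjusted p = 0.0508 to 0.132) and without the filter on low counts (0.0864). With spike-in scaling CHAC1, DDIT3 and ASNS were called, while ATF4, TRIB3, PSAT1, PSPH and MTHFD2 were at 0.15, 0.37, 0.21, 0.33 and 0.20 and PHGDH turned to -0.26 (adjusted p = 0.507 to 0.806).

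Against RSV alone, adding Vem raised PSAT1 and PSPH. PSAT1 was at 65.0 and 63.6 CPM with RSV and 100.5 and 120.1 with RSV+Vem, a log2 fold change of 0.77 ± 0.11 (adjusted p = 7.04e-05). PSPH had 0.52 ± 0.11 (adjusted p = 0.00163), a change that spike-in scaling took to -0.0012. With that scaling PSAT1 was at 0.20 (adjusted p = 0.770) and no member was called. CHAC1, DDIT3 and ATF4 were also above RSV in both RSV+Vem libraries, with log2 fold changes of 1.06 ± 0.41, 0.79 ± 0.31 and 0.43 ± 0.17, but were not called (adjusted p = 0.104, 0.105 and 0.0884). These 3 were called in the fit without robust estimation of the spread (adjusted p = 0.0116, 0.0190 and 0.0474), which gave 5 members higher in place of 2. In a fit to only the libraries compared CHAC1 and DDIT3 were called (0.0127 and 0.0297), as they were with only the 6 RSV libraries (0.0147 and 0.0317), and ATF4 was called with DESeq2 (0.0303) and without the filter on low counts (0.000275). They were also called on leaving out a library: CHAC1 without vehicle replicate 1 or 2 (adjusted p = 0.0166 and 0.0151), DDIT3 without vehicle replicate 1 or 2 or RSV replicate 1 (0.0353 to 0.0382, with a log2 fold change of 1.21 without the last), and ATF4 without RSV replicate 1 (0.76, adjusted p = 0.000455). MTHFD2 was at 0.26 ± 0.11 (adjusted p = 0.0823) and was called without RSV+Vem replicate 1 (0.0498). PHGDH, TRIB3, ASNS and SHMT2 were at 0.05, -0.29, 0.36 and -0.12. Of all tested genes, 11.3% were called higher and 13.4% lower, 24.7% in all.

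With both RSV and TCDD, 8 members were called above vehicle and 1 below, beside 22.2% and 21.5% of the tested genes (43.7% in all). SHMT2, which was not called, was above vehicle in both libraries (0.16 ± 0.10, adjusted p = 0.209). PSAT1 was the one below, at 40.2 and 35.7 CPM and a log2 fold change of -0.58 ± 0.11 (adjusted p = 0.000451). CHAC1, DDIT3, ASNS and TRIB3 were higher by 2.22, 2.04, 1.40 and 1.35 on the log2 scale, and PHGDH, PSPH, ATF4 and MTHFD2 by 0.69, 0.41, 0.50 and 0.29. With spike-in scaling, which shifted the median of all genes by -1.19, the last 4 turned to -0.50, -0.77, -0.67 and -0.91. DDIT3, ASNS and TRIB3 were then at 0.86, 0.23 and 0.18 and were not called (adjusted p = 0.0679, 0.623 and 0.709). ATF4 lost its call without vehicle replicate 1, vehicle replicate 2 or RSV+TCDD replicate 1 (adjusted p = 0.0697 to 0.183), MTHFD2 without either library of vehicle or RSV+TCDD (0.0553 to 0.168), TRIB3 without vehicle replicate 2 or RSV+TCDD replicate 1 (0.0566 and 0.0679), and CHAC1 without RSV+TCDD replicate 1 (0.0504). Without RSV+TCDD replicate 1 the count was 5.

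Against RSV alone, adding TCDD lowered PSAT1 and MTHFD2 and called no member higher, beside 3.89% of the tested genes called higher and 2.28% lower (6.16% in all). PSAT1 had a log2 fold change of -0.76 ± 0.11 (adjusted p = 0.00100) and MTHFD2 of -0.39 ± 0.11 (0.0409). The MTHFD2 call was lost without either library of TCDD, RSV or RSV+TCDD (adjusted p = 0.0635 to 0.204), leaving PSAT1 as the one call except without RSV replicate 1, where 3 members were called. The MTHFD2 call was also lost with only the libraries compared (0.0567) and with only the 6 RSV libraries (0.0600). PHGDH was at 0.30 ± 0.09 (adjusted p = 0.0583) and was called without vehicle replicate 1 (0.0488), without RSV replicate 1 (0.0213), without the filter on low counts (0.0216) and by DESeq2 (0.0482), and ATF4, at 0.13, was called without RSV replicate 1 (0.47, adjusted p = 0.0385). The other 6 members lay between -0.60 and 0.39. With spike-in scaling 6 members were called lower, PSAT1, MTHFD2, CHAC1, TRIB3, ASNS and PSPH.

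The wider pathway was read from 7 lists of 78 genes, 73 of them tested. RSV called 23 of these higher and 19 lower against vehicle, 26 and 19 over Vem and 21 and 19 over TCDD, so the lists moved in both directions. As shares of the 73, 31.5%, 35.6% and 28.8% were higher and 26.0% lower in each. Of all tested genes, 20.5%, 19.1% and 18.6% were higher and 20.2%, 18.7% and 19.1% lower. In all 3 comparisons 15 were called higher, 20.5% beside 6.82% of all tested genes, and 11 lower. The lists too were chosen with earlier results of these data known, so these shares are descriptive only. The stress transcription factors had the highest share called higher, with 7, 8 and 5 of 9 called higher and 1, 1 and 2 lower, and median log2 fold changes of 1.61, 1.22 and 0.69. JDP2, a repressor of the AP-1 family, was at 0.962 and 0.809 CPM with vehicle and 10.7 and 8.09 with RSV, a log2 fold change of 3.41 ± 0.30 (adjusted p = 2.56e-07). NUPR1, a small chromatin-associated stress protein, rose by 2.04 ± 0.28 with RSV (adjusted p = 0.000270) and 3.11 ± 0.31 over TCDD (4.34e-05). ATF3, another stress-induced factor, rose by 2.72 ± 0.33 over Vem (0.000158) but was not called over TCDD. Its mean was 8.85 CPM with vehicle, 20.2 with TCDD and 23.7 with RSV+TCDD. ATF6, which senses unfolded proteins in the endoplasmic reticulum, fell, with log2 fold changes of -0.33, -0.30 and -0.33 in the 3 comparisons.

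Among 9 genes of translation control, 3, 5 and 4 rose and 1, 1 and 3 fell with RSV. The 9 were eIF2α kinases and phosphatase subunits together with EIF4EBP1, EIF2S1 and EIF2B5. Of all tested genes, 20.5%, 19.1% and 18.6% were called higher and 20.2%, 18.7% and 19.1% lower. EIF2B5, neither a kinase nor a phosphatase subunit, fell, with log2 fold changes of -0.32, -0.54 and -0.42. PPP1R15A (GADD34), which directs the phosphatase to eIF2α, rose by 1.36 ± 0.41 with RSV (adjusted p = 0.0365), 1.51 ± 0.42 over Vem (0.0282) and 1.48 ± 0.41 over TCDD (0.0288). EIF2AK1, the kinase HRI that responds to heme and mitochondrial stress, rose by 0.52 ± 0.08 with RSV (9.20e-05), and EIF2AK3, the kinase PERK of the endoplasmic reticulum, by 0.40 ± 0.14 over TCDD (0.0305). Of the 10 tested stress effectors, 3, 4 and 3 rose and 1, 0 and 0 fell. SESN2, which restrains mTORC1, was at 14.1 and 14.0 CPM with vehicle and 73.5 and 42.8 with RSV, a change of 2.05 ± 0.27 (0.000237). INHBE, an activin subunit, had counts of 4 and 3 with vehicle, 76 and 32 with RSV, 1 and 0 with TCDD and 60 and 39 with RSV+TCDD. GDF15, a secreted stress hormone, fell with Vem (-3.10 ± 0.60, adjusted p = 0.00508) and rose with RSV over Vem (2.16 ± 0.60, 0.0308).

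The amino acid transporters were mixed, with 1, 2 and 2 of 8 higher and 3, 3 and 1 lower. Beside them, 20.5%, 19.1% and 18.6% of all tested genes were called higher and 20.2%, 18.7% and 19.1% lower. SLC1A5, which carries glutamine, rose by 0.77 ± 0.14, 1.28 ± 0.15 and 0.73 ± 0.14 (adjusted p = 0.000420, 5.70e-06 and 0.000734), whereas SLC1A4, which carries serine and alanine, fell, with log2 fold changes of -0.93, -0.82 and -1.25. Of the 16 other amino acid and one-carbon enzymes, 5, 6 and 5 rose and 5, 2 and 3 fell. As shares, 31.2%, 37.5% and 31.2% were higher and 31.2%, 12.5% and 18.8% lower. ALDH1L2, a mitochondrial folate enzyme, had counts of 1 and 6 with vehicle and 19 and 31 with RSV, and CTH, which makes cysteine, rose by 1.56 ± 0.15 over Vem (2.82e-07). MTHFD1L, the mitochondrial step after MTHFD2, fell by 0.74 on the log2 scale with RSV (9.28e-05), and by 0.65 over TCDD (0.000366). It was not called lower over Vem.

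Of 13 endoplasmic reticulum chaperones and related genes, 3, 1 and 2 rose and 3, 7 and 5 fell with RSV alone, over Vem and over TCDD, or 23.1%, 7.69% and 15.4% higher, with RSV alone near the 20.5% of all tested genes. HERPUD1 rose by 0.67, 0.64 and 0.76, whereas SDF2L1, which works with the chaperone HSPA5, fell, with log2 fold changes of -0.67, -0.80 and -0.70. Of 8 mitochondrial chaperones, proteases and related genes, 1, 0 and 0 rose and 5 fell in each comparison. Of all tested genes, 20.2%, 18.7% and 19.1% were called lower. The 1 that rose was KIAA0141, at 0.27, which is not a chaperone or protease. Among those that fell were OMA1, a stress-activated protease (-0.78, -0.69 and -0.79) and the chaperonin HSPD1 over Vem (-0.71). With Vem alone, 14 of the 73 tested genes rose and 22 fell, 19.2% and 30.1% beside 25.5% and 26.9% of all tested genes, and with TCDD alone 2 rose and 3 fell, 2.74% and 4.11% beside 4.72% and 2.01%. SLC7A5 and SLC3A2, which together carry large neutral amino acids, rose with Vem by 1.33 and 1.31, and with TCDD the cystine transporter SLC7A11 was at -0.91 ± 0.13 (adjusted p = 0.000437).

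**Figure D5:**
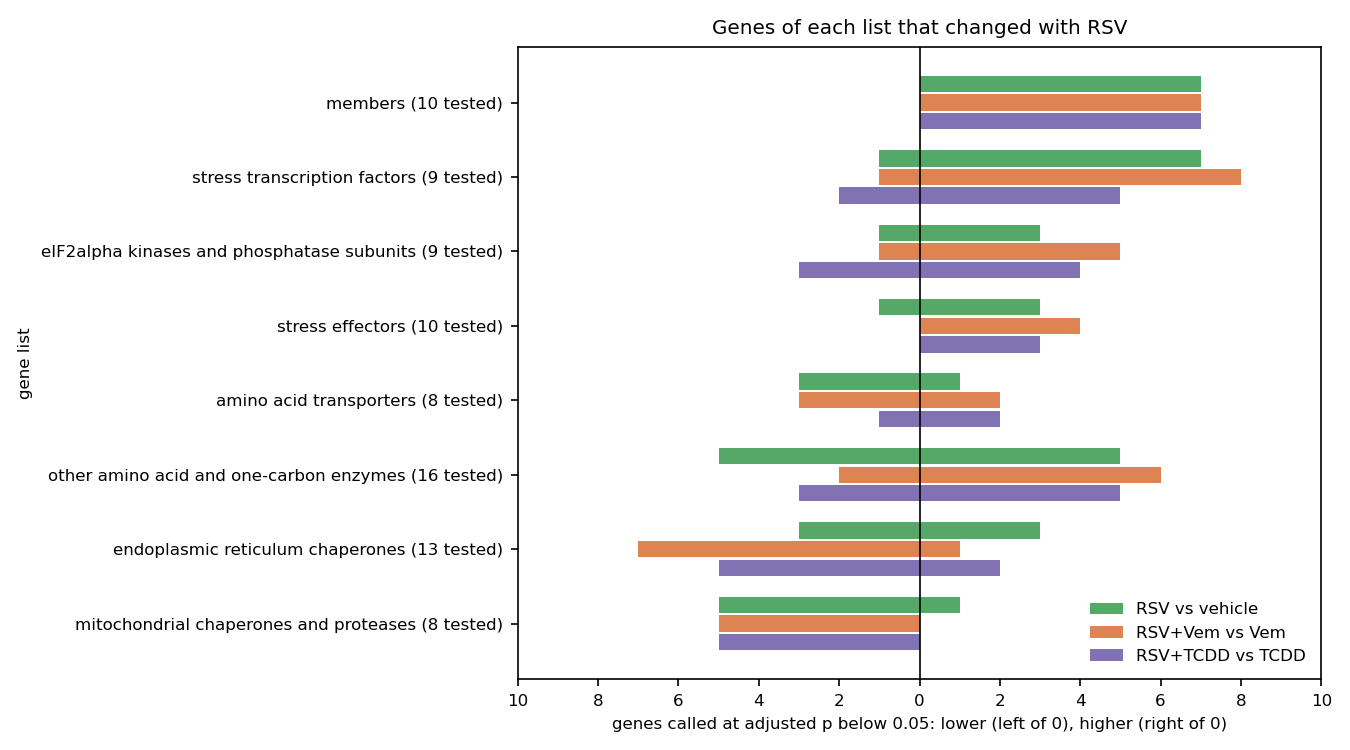
Number of genes of each list called higher (right of 0) and lower (left of 0) with RSV against vehicle, over Vem and over TCDD. The stress transcription factors were mostly higher, as 7, 8 and 5 of 9, and the mitochondrial chaperones and proteases mostly lower, with 5 of 8 in each comparison. The list of eIF2α kinases and phosphatase subunits also holds EIF4EBP1, EIF2S1 and EIF2B5. The list of mitochondrial chaperones and proteases also holds KIAA0141.

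Levels of different members were compared only per kilobase of the canonical transcript, as means ± SD of 2 libraries. With vehicle, ATF4 (251 ± 17.7 CPM per kb) and PHGDH (247 ± 1.32) were the highest and did not differ beyond their spread. SHMT2 followed at 110.3 ± 1.34. TRIB3, MTHFD2, DDIT3 and PSAT1 lay between 32.3 and 25.7, and MTHFD2 (27.8 ± 0.739), DDIT3 (26.3 ± 9.50) and PSAT1 (25.7 ± 2.18) did not differ beyond their spread. DDIT3 also did not differ beyond the spread from TRIB3 (32.3 ± 2.63) or ASNS (18.1 ± 5.29). CHAC1 was last at 3.96 ± 2.55. With RSV+Vem the order was ATF4 (436 ± 44.6), PHGDH (337 ± 14.4), DDIT3 (141 ± 22.8) and SHMT2 (102 ± 0.198). CHAC1 (57.2 ± 10.5), MTHFD2 (53.4 ± 6.70) and PSAT1 did not differ beyond their spread, nor did CHAC1 from TRIB3 (66.6 ± 3.67). PSPH was last at 31.3 ± 0.736. With Vem, PHGDH was at 142 ± 13.4, and MTHFD2 (16.5 ± 2.64) and CHAC1 (19.2 ± 4.18) had the lowest means, within their spread of each other. CHAC1 also did not differ beyond the spread from PSPH (22.1 ± 1.45), and neither gene did from ASNS (26.4 ± 8.59) or TRIB3 (31.5 ± 13.3).

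Over the 12 libraries, the log2 CPM of DDIT3 and ASNS were the most alike among members (Pearson r = 0.97), as were CHAC1 and PSPH (0.97), while PSAT1 ran against SHMT2 (-0.62) and PHGDH (-0.57). These values describe 12 libraries that share 6 treatments and are not independent points. Among the other genes, those whose log2 CPM was most like the mean of the scaled members included INHBE, SLC25A25, PCK2 and NUPR1 (r of 0.97 each), of which INHBE, PCK2 and NUPR1 belong to the pathway lists. For ATF4 alone they were its near copy ATF4P3 (r = 0.97), PRKRIP1 (0.96) and ZFP41 (0.96). PCK2, the mitochondrial PEP carboxykinase, was at 23.9 and 22.8 CPM with vehicle, 20.8 and 24.6 with TCDD, 71.0 and 50.7 with RSV and 76.8 and 80.7 with RSV+Vem.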

How the data were processed

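RNA of 501Mel cells was measured in 12 libraries, 2 in each of 6 groups. According to the submitters' processing notes and the study's methods, the authors made stranded mRNA libraries from poly(A) RNA, aligned the read pairs to hg19 with STAR 2.4.0a and counted them per gene symbol and strand with featureCounts (Subread 1.5.0-p3). The deposited counts are raw and cover 56638 gene symbols, beside 96 control sequences that include 92 ERCC spike-ins. The annotation release counted is not given in the sources used here, and positions are from GENCODE on GRCh37. Reads of several genes with 1 symbol were counted together, and PCR copies were not removed, so counting error is a lower limit. Total gene counts were 8378655 to 25076925 per library.

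The control sequences were removed, filterByExpr by group left 16080 genes, and counts were scaled with TMM factors of 0.890 to 1.08. A quasi-likelihood model with a term for each group was fitted to the 12 libraries in edgeR 4.0.16 (R 4.3.3), with robust estimation of the spread. The 11 comparisons were tested with its F test, two-sided, adjusted over all tested genes, and called at an adjusted p below 0.05, the study's threshold, which was applied there with DESeq2. The groups were set by the labels. An exact permutation test of 1 gene cannot reach 0.05 with groups of 2. The common biological coefficient of variation was 0.0915.

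The fit was run first with edgeR's default estimation of the spread, as the written design reads, and its calls for the members were seen. It was then changed to robust estimation to follow an earlier processing of the same counts, whose number of calls with TCDD, 1082, it returned. The default fit is kept as the alternative without robust estimation. Its counts of members called differ from those reported for Vem (5 higher and 3 lower), for RSV+Vem against RSV (5 and 0) and for the interaction of RSV and Vem (2 and 1). Also chosen after the data were seen were the 2 motifs, the use of canonical transcript lengths in place of union exon lengths, the restriction of the check on replicate pairing to 12799 well counted genes, and the fits of the 6 RSV libraries with and without a block. The members and gene lists were chosen with earlier results of these data known.

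The text names all 10 members, of each list up to 2 called genes per direction with the largest change in a comparison, and the genes most alike over the 12 libraries, of which 1 is not reported here. Alternatives were RLE factors, scaling to the spike-ins, no filter, at least 10 counts in every library, DESeq2 1.42.0, a replicate block, only the libraries compared, each library left out, and the added fits above. A simulation of RSV against vehicle held 15533 genes, 200 of them changed by 1 on the log2 scale. There edgeR called 161 of the 200 and 9 unchanged genes. The share called among genes with a spread as wide as that of CHAC1 (standard error 0.47 with RSV against vehicle) was not tested. Promoter sequences are from RefSeq (GRCh38.p14) and were placed on GRCh37 by exact match. Python 3.11.15 with matplotlib 3.10.9 drew the figures.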

Additional observations from a re-analysis of the deposited data

Results flagged for a closer look

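The effect of RSV differed with and without Vem for PHGDH and MTHFD2, by a test of the difference itself. The difference was 0.85 on the log2 scale for PHGDH and 1.02 for MTHFD2, each with an adjusted p of 0.000152 (edgeR quasi-likelihood F test, 2 libraries per group), and both differences were positive with each of the 12 libraries left out. These 2 calls, 20% of the 10 members, stand beside 22.7% of all tested genes called in this interaction. Neither call was made with spike-in scaling, although the differences there were no smaller, at 0.95 for PHGDH and 1.09 for MTHFD2. The share of control RNAs differed between the RSV+Vem replicates, 0.0389% and 0.0903%. PHGDH was at 283 and 247 CPM with Vem and at 609 and 647 CPM with RSV+Vem, against 462 and 459 with vehicle and 652 and 559 with RSV. MTHFD2 was at 80.8 and 64.4 CPM with Vem and at 214 and 256 with RSV+Vem, against 120.0 and 125 with vehicle and 201 and 190.2 with RSV. The RSV+Vem libraries also had the lowest RIN values, 8.7 and 8.6, and replicate 2 the lowest total count; their part in the differences was not tested. No group held the 4 samples that a check for a library far from the others needs.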

How the results depend on the processing

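With DESeq2, RLE factors or at least 10 counts in every library, all 22 counts of called genes (members, and pathway genes, in 11 comparisons) stayed within 1.5 times of those reported. Scaling to the spike-ins moved 19 of them. Called members were then 3 with Vem, 1 with TCDD, 3 with RSV, 3 with RSV+Vem, 4 with RSV+TCDD, 4 for RSV+Vem against Vem, 0 for RSV+Vem against RSV, 3 for RSV+TCDD against TCDD, 6 for RSV+TCDD against RSV (all lower) and 0 in the interaction of RSV and Vem. Called pathway genes were 19, 0, 7 and 28 with Vem, TCDD, RSV and RSV+Vem, 11 for RSV+Vem against Vem, 3 for RSV+Vem against RSV, 15 for RSV+TCDD against TCDD, 52 for RSV+TCDD against RSV (all lower) and 0 in the interaction of RSV and Vem. This scaling reversed 10 single values: PSPH with Vem (-0.14), PHGDH with RSV+Vem (-0.26), ATF4, PHGDH, PSPH, SHMT2 and MTHFD2 with RSV+TCDD against vehicle (-0.67, -0.50, -0.77, -1.01 and -0.91), PSPH for RSV+Vem against RSV (-0.0012), ATF4 for RSV+TCDD against TCDD (-0.074) and TRIB3 for RSV+TCDD against RSV (-1.03); the cause was not tested.

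Members called higher for RSV+Vem against RSV, 2 as reported, were 5 without robust estimation, 5 with the replicate block, 4 with only the libraries compared, 4 with only the 6 RSV libraries and 7 with the replicate block over those 6. For RSV+TCDD against RSV, 2 members as reported were 1 with only the libraries compared, 1 with only the 6 RSV libraries and 5 with the block over those 6. Pathway genes called with TCDD, 5 as reported, were 13 without the filter, 9 with the replicate block and 8 without robust estimation. For RSV+Vem against RSV, 22 pathway genes were 35 with the block over the 6 RSV libraries. For RSV+TCDD against RSV, 2 pathway genes were 4 without the filter, 4 with only the libraries compared, 4 with only the 6 RSV libraries and 14 with the block over those 6. In the interaction of RSV and TCDD, 0 pathway genes were 1 without the filter and 1 with the replicate block.

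The labels do not say what a replicate number shares, and the numbers were not taken to pair the samples, since not every pairing correlated above 0.1: in the 15 pairings of groups, replicate differences correlated at -0.31 to 0.37, above 0.1 in 6 and below -0.1 in 3, with 0.27 to 0.37 between the 3 RSV groups. In 5 of the 6 groups most members were higher in replicate 1. The block gained 10 member calls and ended none: ATF4, DDIT3 and ASNS with Vem (adjusted p = 0.00822, 0.00647 and 0.0216), CHAC1 with TCDD (0.00363), ATF4 with RSV (0.0272) and over Vem (0.0188), CHAC1, DDIT3 and ATF4 for RSV+Vem against RSV (0.000372, 0.000815 and 0.0124), and CHAC1 in the interaction of RSV and Vem (0.00352).

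With each library left out in turn, members called ranged from 1 to 3 for RSV+TCDD against RSV, 5 to 9 for RSV+TCDD, 2 to 4 for RSV+Vem against RSV and 2 to 5 with TCDD. Pathway genes called ranged from 0 to 1 in the interaction of RSV and TCDD, 9 to 21 in that of RSV and Vem, 0 to 5 for RSV+TCDD against RSV, 25 to 43 for RSV+TCDD against TCDD, 14 to 24 for RSV+Vem against RSV and 2 to 10 with TCDD. The lone library left in a group was assumed to vary like the other groups. Of 1320 single values of members, 50 lost and 22 gained a call and none reversed. Single pathway genes were not recomputed. Counts limit CHAC1 most, with 26 counts in its lowest library.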
